A study of Homo sapiens and Mus musculus with 41 samples.

Results

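The comparison described here sets the leptomeningeal derivative of the PC9 lung cancer line against its intermediate derivative, gene by gene. PC9 is a human lung adenocarcinoma line, and the labels give it elevated EGFR expression. The libraries were taken by their labels: 2 of the leptomeningeal derivative (Lep) and 2 of the intermediate derivative (Int), 4 of the 41 samples of the series. Of the 23368 genes in the PC9 table, 14475 had a normalized count of at least 10 in at least 2 of its 10 libraries and were tested.

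The other PC9 libraries are 3 of the parental line (Par) and 3 of a brain metastatic derivative (BrM), which entered the fit for its estimate of spread. The derivatives carry GFP and were obtained by rinsing cells from the leptomeningeal space of mice and growing them in culture until the population was uniformly GFP-positive, so the RNA is from cultured human cells and not from tissue. The labels name the intermediate stage without defining it. They describe the replicates of Int and Lep as partly biological and partly technical and do not tell them apart, so p-values measure the spread between these libraries and may partly be technical.

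Leptomeningeal metastasis is the growth of cancer cells in the fluid-filled space between the membranes that cover the brain and spinal cord. Cerebrospinal fluid holds little protein, lipid and iron compared with plasma, and cells that grow in it have to make or scavenge what they need. Cholesterol and fatty acid synthesis is controlled by the SREBP transcription factors, which switch on the synthetic enzymes together when sterols run low. Small proline-rich proteins and the keratins of squamous epithelium, by contrast, build its tough outer layers and are not typical of glandular lung cells. The simple epithelial keratins, such as KRT7, KRT8, KRT18 and KRT19, are a different group.

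The values are normalized counts: read counts divided by 1 factor per library. The whole reads could be recovered from them, and totalled 38432963 and 29344402 for Int replicates 1 and 2, and 32709007 and 28657904 for Lep replicates 1 and 2. Epithelial genes were abundant in all 4 libraries, with KRT8 between 176744 and 215278 and EPCAM between 8296 and 9773, while the lung lineage factor NKX2-1 lay between 0 and 1.67. Of the 6 marker lists for host cell types, 0 had a called member, with at most 6 genes tested in a list and 0.608% of all genes called. The summed levels of these lists differed most for macrophages and microglia, from 3056 to 3213 in Int and from 3370 to 4704 in Lep. Of this CD68 gave 2715 to 2875 in Int and 2866 to 4190.3 in Lep. From the same list TYROBP and P2RY12 were at 0 in all 4 libraries, whereas CSF1R, ITGAM and CD14 were higher in both Lep libraries than in both Int.

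The 2 Lep libraries stood further apart from each other than either stood from Int. Between Lep replicates 1 and 2, 739 genes (5.11%) differed by more than 2-fold, against 133 (0.919%) between the 2 Int libraries and 424 to 654 in the pairings of a Lep with an Int library. The median within-stage SD on the log2 scale was 0.14 in Lep, 0.086 in Int, 0.090 in BrM and 0.070 in Par. Pearson's correlation of log2 values across genes, which are not independent replicates, was 0.985 to 0.990 between Lep and Int and 0.941 to 0.955 between Lep and Par. Values are therefore given for each library for most of the genes named.

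Few genes were called between Lep and Int. A gene was called where limma's adjusted p was under 0.05 and the log2 fold change, Lep minus Int on the scale log2(normalized count + 1), was at least 1 in size. By that rule 88 genes were called (0.608% of those tested), 33 higher in Lep (0.228%) and 55 lower (0.38%). In each of the 88, both Lep libraries lay on the same side of both Int libraries, which also held for 2850 of all genes tested downwards (19.7%) and 2623 upwards (18.1%). The change was 1 to 2 log2 units for 65 of the called genes, 2 to 3 for 13 and 3 or more for 10. At an adjusted p under 0.05 and any size there were 393 genes, 170 higher and 223 lower, and at an unadjusted p under 0.05 there were 2563.

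These calls, and the standard errors (SE) given after ±, rest on the spread pooled over all 10 PC9 libraries. The within-stage SD was largest in Lep (median 0.14), so the pooled value can understate the spread of a Lep mean. With the 4 Int and Lep libraries alone in the fit, 1 gene, LCP1, remained called. A fit that leaves out 1 Lep library holds no spread within Lep, so a call kept there is no test against that spread. With single libraries left out the count was 371 without Lep replicate 1, 210 without Lep replicate 2, 42 without Int replicate 1 and 26 without Int replicate 2, where the lone library of a stage is assumed to vary like the other stages.

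**Figure D1:**
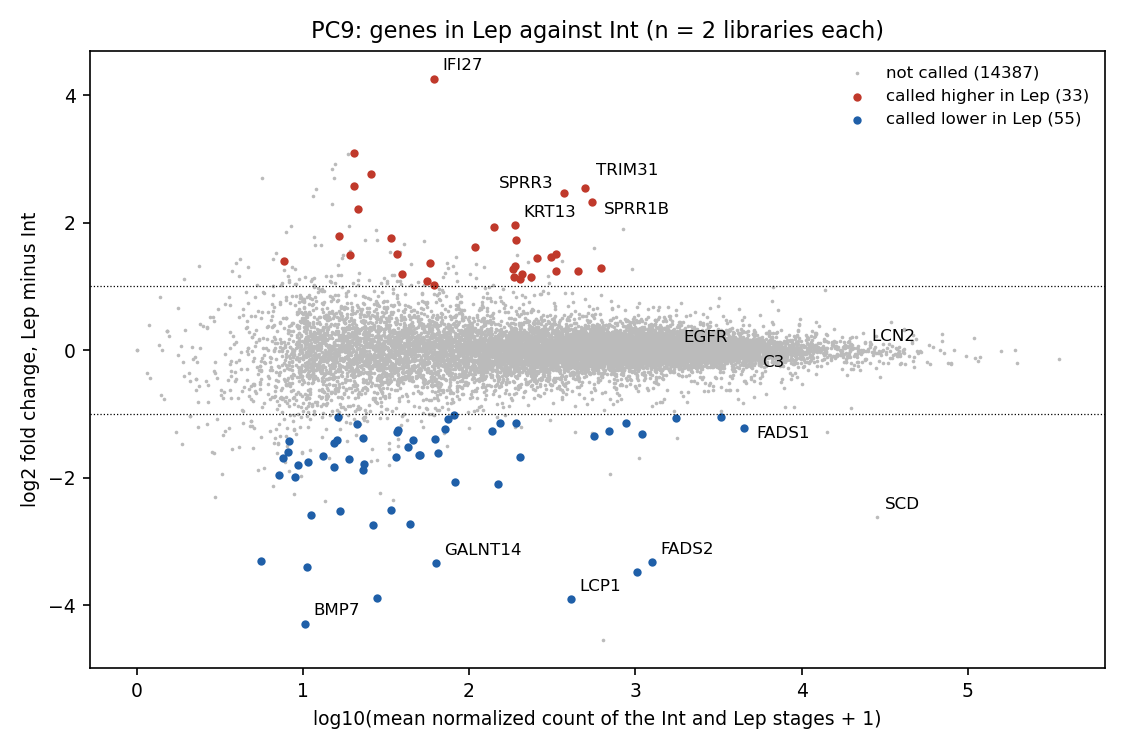
Each point is 1 of the 14475 genes tested. The x axis is log10 of the mean normalized count of the Int and Lep stages plus 1, the y axis the log2 fold change Lep minus Int (2 libraries each), and the dotted lines mark a change of 1. The 33 genes called higher (red) and 55 called lower (blue) lie outside the lines, while SCD lies far below them without being called.

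Genes of cholesterol and fatty acid synthesis had, among the lists examined, the largest share of members lower in Lep than in Int. Of 35 genes listed, 33 were tested, 5 of them fell (beside 0.38% of all genes) and 0 rose (beside 0.228%). The median log2 fold change of the 33 was -0.73, against -0.0014 over all genes tested. Both Lep libraries lay below both Int libraries in 29 of the 33 (87.9%, beside 19.7% of all genes). An adjusted p under 0.05 was reached by 13, all 13 with a log2 fold change below 0, beside 223 of all 14475 genes. The sizes rested on Lep replicate 1: the list's median difference from the Int mean was -1.16 in Lep replicate 1 and -0.29 in Lep replicate 2, and Lep replicate 1 lay below Lep replicate 2 in 30 of the 33 genes. The number of members called lower was 3 without Lep replicate 1, 19 without Lep replicate 2, 2 without either Int library and 0 with the 4 libraries alone.

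FADS2, the delta-6 desaturase that starts the synthesis of long polyunsaturated fatty acids, had normalized counts of 2132 and 2399 in Int and 137 and 367 in Lep. Both Lep libraries were far below both Int libraries, and the log2 fold change was -3.33 ± 0.30 (SE of the pooled fit, n = 2 and 2, adjusted p = 0.000126). FADS1, the delta-5 desaturase of the same pathway, stood at 6230 and 6126 in Int and at 1902 and 3694 in Lep, a log2 fold change of -1.22 ± 0.20 (adjusted p = 0.00937). The Par means, 227 for FADS2 and 3033 for FADS1, lay between the 2 Lep libraries, so Int stood apart from Par and Lep. FADS1 and FADS2 are neighbours on opposite strands, and the kit used does not mark strand, so reads from any stretch they share cannot be told apart. The call of FADS2 held with each single library left out, whereas that of FADS1 was lost without Lep replicate 1, where the log2 fold change was -0.74, and without Int replicates 1 (adjusted p = 0.054) and 2 (0.10).

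LSS, lanosterol synthase, which closes the sterol ring system, stood at 1255 and 1119 in Int and at 378 and 754 in Lep, with a log2 fold change of -1.15 ± 0.21 (adjusted p = 0.0172), and its call was lost without Lep replicate 1 (log2 fold change -0.65) or either Int library (adjusted p = 0.086 and 0.12). STARD4, a sterol carrier, had low counts: it read 11.95 and 6.56 in Int and was listed at 0 in both Lep libraries. Against a floor of 3 reads per library it was at least 3.93-fold lower in Lep.

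Other members of the pathway had the same order of libraries without passing the call. SCD, the desaturase that makes monounsaturated fatty acids, stood at 42432 and 46279 in Int and at 2294 and 22741 in Lep. Lep replicate 1 was thus near the parental mean of 1781, and Lep replicate 2 was closer to Int. The log2 fold change of SCD was -2.62 ± 0.66 and missed the threshold (adjusted p = 0.0560). INSIG1, a sterol-sensing regulator of SREBP, was 2318 and 2362 in Int and 395 and 2055 in Lep (log2 fold change -1.37 ± 0.48, adjusted p = 0.149). With Lep replicate 2 left out, the log2 fold changes of SCD and INSIG1 were -4.27 and -2.56. With Lep replicate 1 left out they were -0.96 and -0.19.

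Outside that list, 2 metabolic genes among the largest decreases behaved alike. LPIN1, a phosphatidate phosphatase of lipid synthesis, read 1539 and 1483 in Int and 369 and 1005 in Lep (log2 fold change -1.31 ± 0.29, adjusted p = 0.0383). ALDOC, a glycolytic aldolase, read 852 and 1082 in Int and 301 and 527 in Lep (log2 fold change -1.27 ± 0.19, adjusted p = 0.00636). In both genes Lep replicate 1 was the lower one, and neither kept its call without Lep replicate 1 or without Int replicate 2; LPIN1 also lost it without Int replicate 1.

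**Figure D2:**
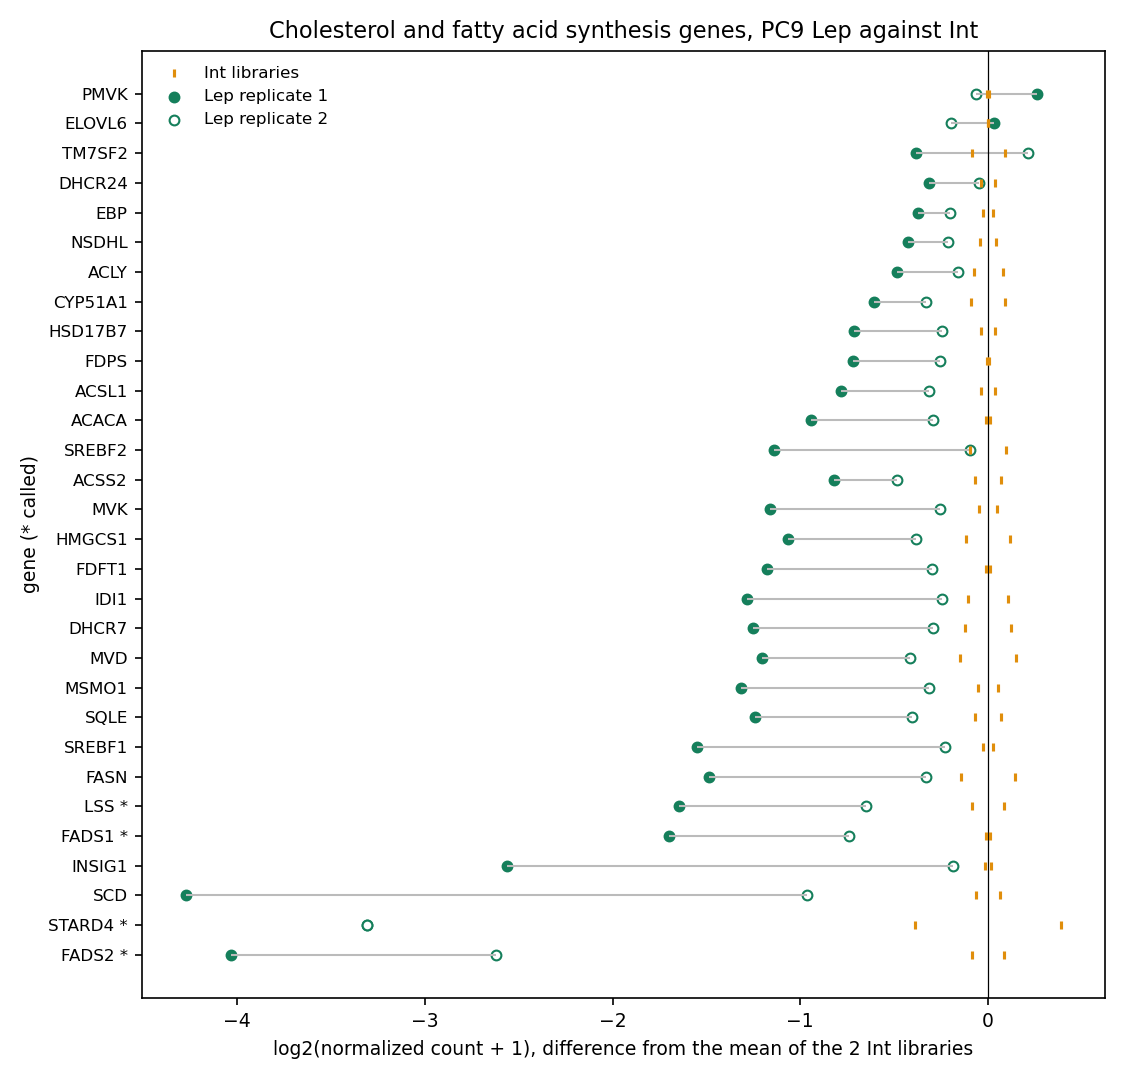
Differences on the log2(normalized count + 1) scale from the mean of the 2 Int libraries for 30 of the 33 tested cholesterol and fatty acid genes, 1 row per gene. Filled circles are Lep replicate 1, open circles Lep replicate 2, orange ticks the Int libraries and asterisks the 4 called genes among those shown. Lep replicate 1 lies left of Lep replicate 2 in 27 of the 30 genes shown.

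To see whether the promoters of this group share letters, the 250 bases before each start were taken from RefSeq (GRCh38.p14) and searched on both strands. The search was made after the values were seen and covered 7 spellings: 5 forms of the sterol element bound by SREBP, the CCAAT box and the AP-1 element. Of the 33 tested genes 26 were in the promoter table, with 39 promoters. The CCAAT box (CCAAT) stood in 23 of the 39 (59%), against 32% of all 35116 promoters in the table. It was in the promoters of LSS and STARD4 but in none of those of FADS1 and FADS2. Among all genes called lower it stood in 10 of 61 promoters (16.4%), a smaller share than that of all promoters. The sterol element written TCACNCCAC stood in 2 of the 39 (5.13%), those of SREBF2 and ACSL1, against 0.883% of all, and in none of the promoters of FADS1, FADS2 and LSS. Its other 4 forms, which overlap it, were found in 1 promoter (the longest form, of 10 fixed letters), 2 (CACCCCAC), 4 (TCACNCCA) and 6 (CACNCCAC) of the 39, against 0.0342%, 2.43%, 3.2% and 4.87% of all promoters. The AP-1 letters TGANTCA stood in 1 (2.56%, beside 6.57% of all). These matches are a description of letters, and no binding was measured. The promoter of LSS is shown because it is a called gene with a CCAAT box, here on the opposite strand as ATTGG in capitals, whose first printed base lies 150 bases before the start. The window is chr21:46228775-46229024, minus strand, read 5′ to 3′ towards the gene.
LSS: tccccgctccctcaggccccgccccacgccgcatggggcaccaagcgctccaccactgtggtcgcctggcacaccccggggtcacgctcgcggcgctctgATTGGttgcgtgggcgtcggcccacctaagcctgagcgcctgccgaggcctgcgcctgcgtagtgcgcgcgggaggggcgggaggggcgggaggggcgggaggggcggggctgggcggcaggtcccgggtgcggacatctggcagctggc

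Among the genes that were higher in Lep, the keratin and squamous list had the most called members. Of 46 keratin and squamous genes listed, 35 were tested, 4 rose (beside 0.228% of all genes) and 0 fell (beside 0.38%). The list's median log2 fold change was 0.28, and both Lep libraries were above both Int libraries in 15 of the 35 (42.9%, beside 18.1% of all genes). The number called higher was 7 without either Lep library, 3 without either Int library and 0 with the 4 libraries alone.

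SPRR1B, a small proline-rich protein of the cornified envelope, stood at 218 and 145 in Int and at 741 and 1085 in Lep. Every Lep library was above every Int library, and the log2 fold change was 2.33 ± 0.23 (SE of the pooled fit, n = 2 and 2, adjusted p = 0.000183). SPRR3, of the same family, read 104 and 109.8 in Int and 415 and 856 in Lep (log2 fold change 2.47 ± 0.28, adjusted p = 0.000653). KRT13, a keratin of the layers above the basal one in mucosal squamous epithelium, read 73.6 and 75.4 in Int and 367 and 234 in Lep (log2 fold change 1.96 ± 0.24, adjusted p = 0.00109). With single libraries left out the log2 fold change ranged from 2.03 to 2.62 for SPRR1B, 1.95 to 2.99 for SPRR3 and 1.64 to 2.28 for KRT13. None of these 3 was called with the 4 Int and Lep libraries alone. SPRR2D had low counts, with 5.03 and 5.74 in Int and 56.5 and 31.8 in Lep, and its call (log2 fold change 2.77 ± 0.67, adjusted p = 0.0478) was lost without Lep replicate 1 or either Int library (adjusted p = 0.093 to 0.28) and without the filter on low values (adjusted p = 0.056). It passed that filter only through its Lep libraries, so that it had to differ to be tested, and its place among the 4 called members is no support for the list. The SPRR genes are related in sequence, some closely, so the counting could have split or dropped reads and their single values are uncertain.

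Related genes did not move as a block. KRT16, a keratin of activated epidermis, had an adjusted p of 0.000345 but a change under the threshold of size (log2 fold change 0.87 ± 0.090, with 413 and 466 in Int and 805 and 796 in Lep). SPRR1A was 196 and 149.96 in Int, 191 in Lep replicate 1 and 669 in Lep replicate 2, so that the stages overlapped. KRT17 went the other way between the Lep libraries, with 61.0 and 47.5 in Int, 222 in Lep replicate 1 and 70.2 in Lep replicate 2. TP63, the master regulator of squamous lineage, overlapped between stages (74.2 and 83.6 in Int, 118 and 46.0 in Lep). TGM2, a transglutaminase, was lower in Lep with an adjusted p of 0.000127 and a log2 fold change of -0.89 ± 0.082, under the threshold of size. The simple epithelial keratins KRT7, KRT8, KRT18 and KRT19 had log2 fold changes between -0.21 and 0.19 and were not called.

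**Figure D3:**
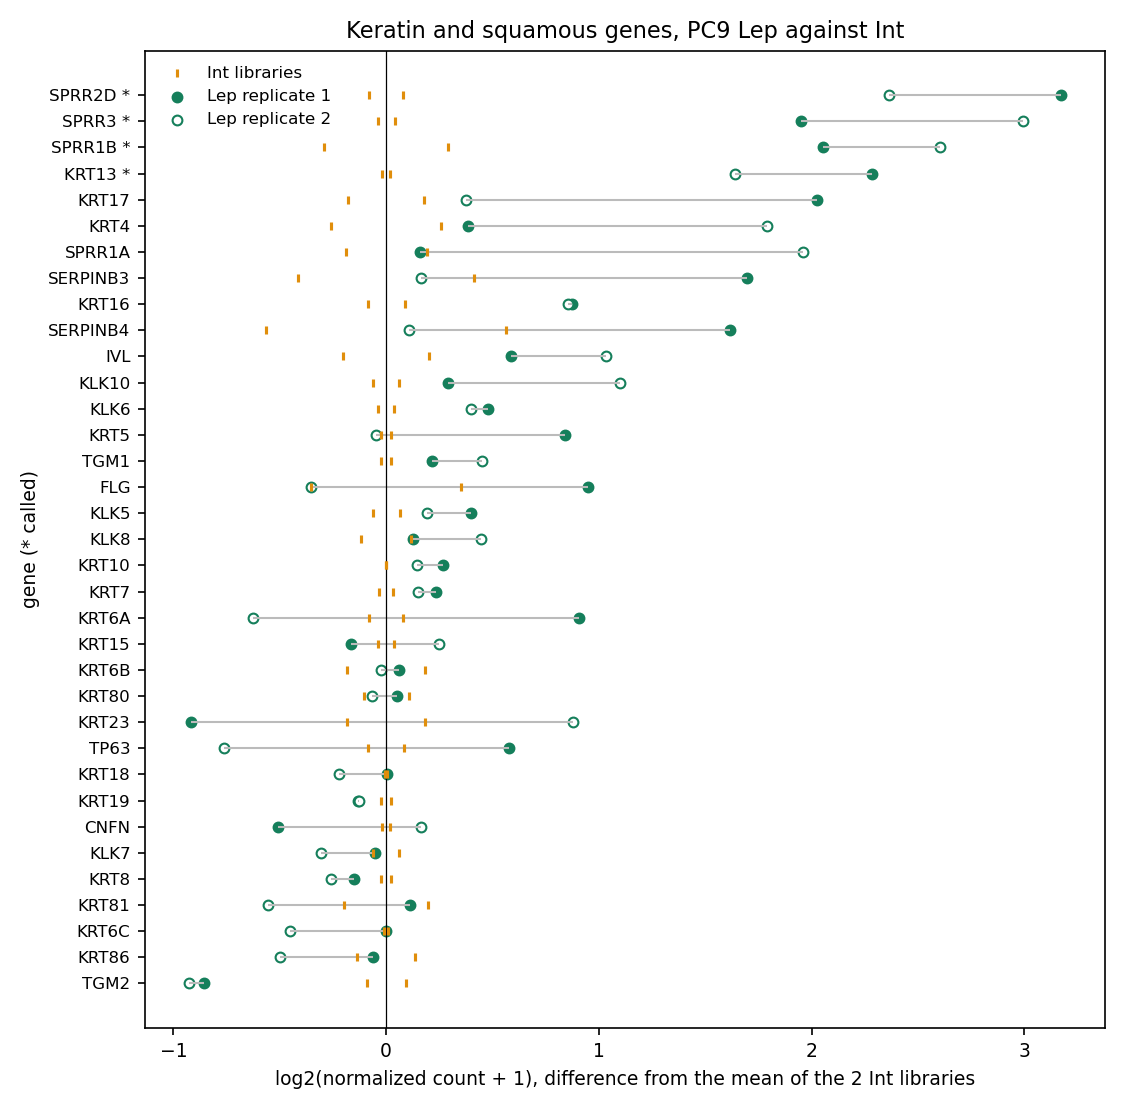
Differences on the log2(normalized count + 1) scale from the mean of the 2 Int libraries for the 35 tested keratin and squamous genes. Filled circles are Lep replicate 1, open circles Lep replicate 2, orange ticks the Int libraries and asterisks the 4 called genes. SPRR2D, SPRR3, SPRR1B and KRT13 lie at the top with both Lep libraries to the right, while the Lep libraries of KRT23, TP63 and KRT6A lie on both sides of Int.

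The promoters of 17 of the 35 tested genes were in the RefSeq table, with 20 promoters. The AP-1 letters TGANTCA stood in 5 of the 20 (25%, beside 6.57% of all promoters), those of FLG, IVL, SPRR1A, SPRR1B and SPRR3, of which SPRR1B and SPRR3 were called. The CCAAT box stood in 5 (25%, beside 32%). Of the 5 sterol element forms, CACNCCAC stood in 3 of the 20 (15%) and CACCCCAC in 1 (5%), shares close to those among the cholesterol and fatty acid promoters (15.4% and 5.13%), and the other 3 in none. The promoters of SPRR1B and SPRR3 are shown as the called members with the AP-1 letters, which are in capitals and read the same on both strands apart from the central base. In SPRR1B they begin 141 and 111 bases before the start and in SPRR3 170 bases before it. The windows are chr1:153030953-153031202 and chr1:153001499-153001748, both on the plus strand of GRCh38.p14.
SPRR1B: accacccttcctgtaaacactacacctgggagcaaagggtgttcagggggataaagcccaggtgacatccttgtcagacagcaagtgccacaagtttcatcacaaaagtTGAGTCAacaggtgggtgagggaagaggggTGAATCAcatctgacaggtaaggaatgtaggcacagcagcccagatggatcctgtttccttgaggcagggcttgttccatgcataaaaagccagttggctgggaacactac
SPRR3: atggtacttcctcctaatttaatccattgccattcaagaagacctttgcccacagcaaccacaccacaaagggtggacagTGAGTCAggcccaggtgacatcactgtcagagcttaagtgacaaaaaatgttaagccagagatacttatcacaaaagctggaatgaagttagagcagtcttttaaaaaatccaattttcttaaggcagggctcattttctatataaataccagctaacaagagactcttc

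The largest increase among the named genes was that of IFI27, an interferon-induced gene, with 5.66 and 4.10 in Int and 156 and 77.7 in Lep. The log2 fold change was 4.26 ± 0.66 (adjusted p = 0.00673), and the call was lost without Int replicate 2 (adjusted p = 0.095). IFI44 was the only other called member of the 41 interferon-stimulated genes tested, with 1.26 and 6.56 in Int and 29.3 and 40.1 in Lep (adjusted p = 0.0478). Both IFI27 and IFI44 passed the filter on low values only through Lep. The list as a whole did not move with them: 0 members fell, the median log2 fold change was 0.0064, and 12 of 41 (29.3%) had both Lep libraries above Int against 6 (14.6%) below, beside 18.1% and 19.7% of all genes. TRIM31, a ubiquitin ligase, read 139 and 141 in Int and 618 and 1099 in Lep, with a log2 fold change of 2.55 ± 0.29 (adjusted p = 0.000653).

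Genes of secretion, guidance and signalling followed. SEMA5A, a semaphorin that steers axons and vessels, read 90.6 and 85.2 in Int and 293 and 295 in Lep (log2 fold change 1.73 ± 0.16, adjusted p = 0.000126). The Lep values lay near the parental mean of 260.4, so for this gene Int was the stage that stood apart. UNC5B, a netrin receptor from the same list of axon guidance genes, read 121 and 108 in Int and 211 and 306 in Lep (log2 fold change 1.14 ± 0.18, adjusted p = 0.00828). These were 2 called members of 46 tested, with 18 of 46 (39.1%) having both Lep libraries above Int, beside 0.228% called higher and 18.1% above Int among all genes. SYBU, a syntaxin-binding protein that links cargo to kinesin, read 52.8 and 62.3 in Int and 247 and 199.8 in Lep (log2 fold change 1.94 ± 0.17, adjusted p = 0.000126).

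PCSK5, a proprotein convertase of the secretory pathway, read 48.4 and 55.7 in Int and 189 and 139 in Lep (log2 fold change 1.62 ± 0.26, adjusted p = 0.00798), and Par, with a mean of 134, was again close to Lep. IL1RL1, the receptor for interleukin-33, read 193 and 148 in Int and 385 and 603 in Lep (log2 fold change 1.505 ± 0.19, adjusted p = 0.00129). ATF3, a stress-induced transcription factor, read 181 and 147 in Int and 556 and 366 in Lep (log2 fold change 1.47 ± 0.21, adjusted p = 0.00364), and was the only called member of the 38 tested genes of amino acid and endoplasmic reticulum stress. AQP3, a water and glycerol channel, read 305 and 234 in Int and 667 and 603 in Lep (log2 fold change 1.25 ± 0.14, adjusted p = 0.000751). LETM2 read 106 and 107 in Int and 253 and 283 in Lep (log2 fold change 1.32 ± 0.25, adjusted p = 0.0200). ATP6V1C2, a proton pump subunit, read 113 and 149 in Int and 236 and 529 in Lep (log2 fold change 1.44 ± 0.32, adjusted p = 0.0386). The call of ATF3 was lost without Int replicate 2 (adjusted p = 0.079), and those of PCSK5, LETM2 and ATP6V1C2 without either Int library (adjusted p = 0.052 to 0.18). ATP6V1C2 also lost it without Lep replicate 2 (log2 fold change 0.86), while UNC5B fell under the threshold of size without Lep replicate 2 and lost its call without Int replicate 2 (adjusted p = 0.11).

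LCP1, which encodes the actin-bundling protein L-plastin, had the smallest adjusted p of the comparison. It read 735 and 799.8 in Int and 52.8 and 47.6 in Lep, against a mean of 2029 in Par and 3553 in BrM. Its log2 fold change was -3.91 ± 0.078 (adjusted p = 8.16e-12) and ranged from -3.98 to -3.83 with single libraries left out. CALD1, caldesmon, another actin-binding protein, read 740 and 820.3 in Int and 488 and 191 in Lep (log2 fold change -1.35 ± 0.28, adjusted p = 0.0274), and its call was lost without Lep replicate 2 (log2 fold change -0.67) or either Int library (adjusted p = 0.085 and 0.24).

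3 enzymes of the GALNT family, whose members start O-linked glycosylation, were called lower, a family picked out after the values were seen. Of 12 tested genes with that name 3 were called lower, beside 0.38% of all genes, and 0 higher. Both Lep libraries lay below both Int in 7 of the 12, beside 19.7% of all genes, and above in 0, beside 18.1%. The median log2 fold change was -0.14. GALNT14 read 113 and 112 in Int and 15.4 and 6.69 in Lep (log2 fold change -3.34 ± 0.26, adjusted p = 6.56e-05). GALNTL4 read 42.8 and 46.7 in Int and 5.13 and 6.69 in Lep, and GALNT13 read 49.7 and 47.5 in Int and 10.3 and 0 in Lep. For all 3 genes the Lep libraries lay below Int, and GALNT14 kept its call with each library left out.

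3 further decreases were secreted proteins, of which BMP7 and CHRDL1 were chosen after their values were seen. BMP4, the 1 called member of the 28 tested TGF-beta and YAP targets and a secreted growth factor, read 233 and 225 in Int and 106 and 25.9 in Lep (log2 fold change -2.10 ± 0.42, adjusted p = 0.0239), with the call lost without either Int library (adjusted p = 0.095 and 0.19). BMP7 read 18.2 and 18.8 in Int and was listed at 0 in both Lep libraries, which makes it at least 7.88-fold lower against a floor of 3 reads per library. CHRDL1, an extracellular BMP antagonist, read 11.95 and 10.7 in Int and 3.67 and 2.51 in Lep (adjusted p = 0.0112).

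ZNF618, a zinc finger protein, read 132 and 129 in Int and 39.6 and 23.4 in Lep (log2 fold change -2.06 ± 0.19, adjusted p = 0.000157). TRPV2, a cation channel, read 186 and 199.9 in Int and 71.1 and 89.4 in Lep (log2 fold change -1.26 ± 0.21, adjusted p = 0.0112). PADI3, a peptidylarginine deiminase, read 274 and 327 in Int and 61.6 and 139.6 in Lep (log2 fold change -1.68 ± 0.28, adjusted p = 0.00946). AGR2, a secretory-cell chaperone of glandular epithelium, read 2152 and 2554 in Int and 827 and 1507 in Lep (log2 fold change -1.07 ± 0.23, adjusted p = 0.0323). TCF7L1, a transcription factor of the WNT pathway, read 243 and 269.6 in Int and 167 and 80.2 in Lep (log2 fold change -1.14 ± 0.25, adjusted p = 0.0335). Of these 5 genes ZNF618 kept its call with each single library left out, and the other 4 lost theirs without Int replicate 2 (adjusted p = 0.13 to 0.28). AGR2, TCF7L1 and TRPV2 also lost theirs without Int replicate 1 (adjusted p = 0.077, 0.092 and 0.05), AGR2 without Lep replicate 1 (log2 fold change -0.64) and TCF7L1 without Lep replicate 2 (-0.61).

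Of the 88 called genes, 39 had a mean of 100 or more in whichever stage was higher, 20 of them higher and 19 lower in Lep, and the others had low counts. Several of the remaining calls fall in lists on differentiation and signalling, and are named here after their values were seen. Among the 21 tested lung lineage genes AQP3 rose (beside 0.228% of all genes), and AGR2 and FOXA2 fell (beside 0.38%). Both Lep libraries lay above both Int in 8 of the 21 (38.1%, beside 18.1% of all genes) and below in 4 (19%, beside 19.7%). The list's median log2 fold change was 0.25. FOXA2, a forkhead factor of airway epithelium, read 11.95 and 9.01 in Int and 3.67 and 1.67 in Lep (adjusted p = 0.0197). GATA4, a zinc finger factor of endoderm and heart that is on none of the lists, read 15.7 and 10.7 in Int and 3.67 and 1.67 in Lep (adjusted p = 0.00877). Both factors were thus close to the limit of counting in Lep.

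Of 53 tested genes of the WNT and Notch pathways, 1 rose (beside 0.228% of all genes) and 2 fell (beside 0.38%). HEY1, a transcription factor induced by Notch, read 20.1 and 26.2 in Int and 51.3 and 56.0 in Lep (log2 fold change 1.19 ± 0.24, adjusted p = 0.0230). NEURL, a ubiquitin ligase that acts on Notch ligands, is not on that list, and read 364 and 346 in Int and 693 and 1084 in Lep (log2 fold change 1.29 ± 0.16, adjusted p = 0.00128). DKK3, of the Dickkopf family, read 15.1 and 21.3 in Int and 2.20 and 0 in Lep (adjusted p = 0.00575). CYP1A1, a drug-metabolizing enzyme induced through the aryl hydrocarbon receptor, was the 1 called member of 48 tested genes of drug and redox defence, with 6.29 and 6.56 in Int and 44.0 and 25.1 in Lep (adjusted p = 0.0127). MT2A, a metallothionein that binds zinc and copper, read 4249 and 4371 in Int and 2990.4 and 1444 in Lep (log2 fold change -1.05 ± 0.23, adjusted p = 0.0330).

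2 receptors better known from macrophages rose from low counts. MARCO, a scavenger receptor, read 5.66 and 4.10 in Int and 31.5 and 35.9 in Lep (adjusted p = 0.0250). TLR4, the receptor for lipopolysaccharide, read 3.14 and 3.28 in Int and 8.07 and 12.5 in Lep (adjusted p = 0.00603), against 182 to 205 in the 3 Par libraries. MARCO reached a value of 10 in 2 libraries only through Lep, so it entered the test by the stage in which it is high. Of the 15 macrophage and microglia markers 4 were tested and 0 were called, with a median log2 fold change of 0.57. CSF1R, ITGAM and CD14, 3 of those 4 (75%, beside 18.1% of all genes), had both Lep libraries above both Int, and CSF1R read 86.8 and 82.8 in Int and 182 and 127 in Lep (log2 fold change 0.84 ± 0.16, adjusted p = 0.0206). The markers TYROBP and P2RY12 were at 0 in the same 4 libraries, and 11 of the 15 were below 10 in each of them. The part of macrophage markers in these results was not tested.

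**Figure D4:**
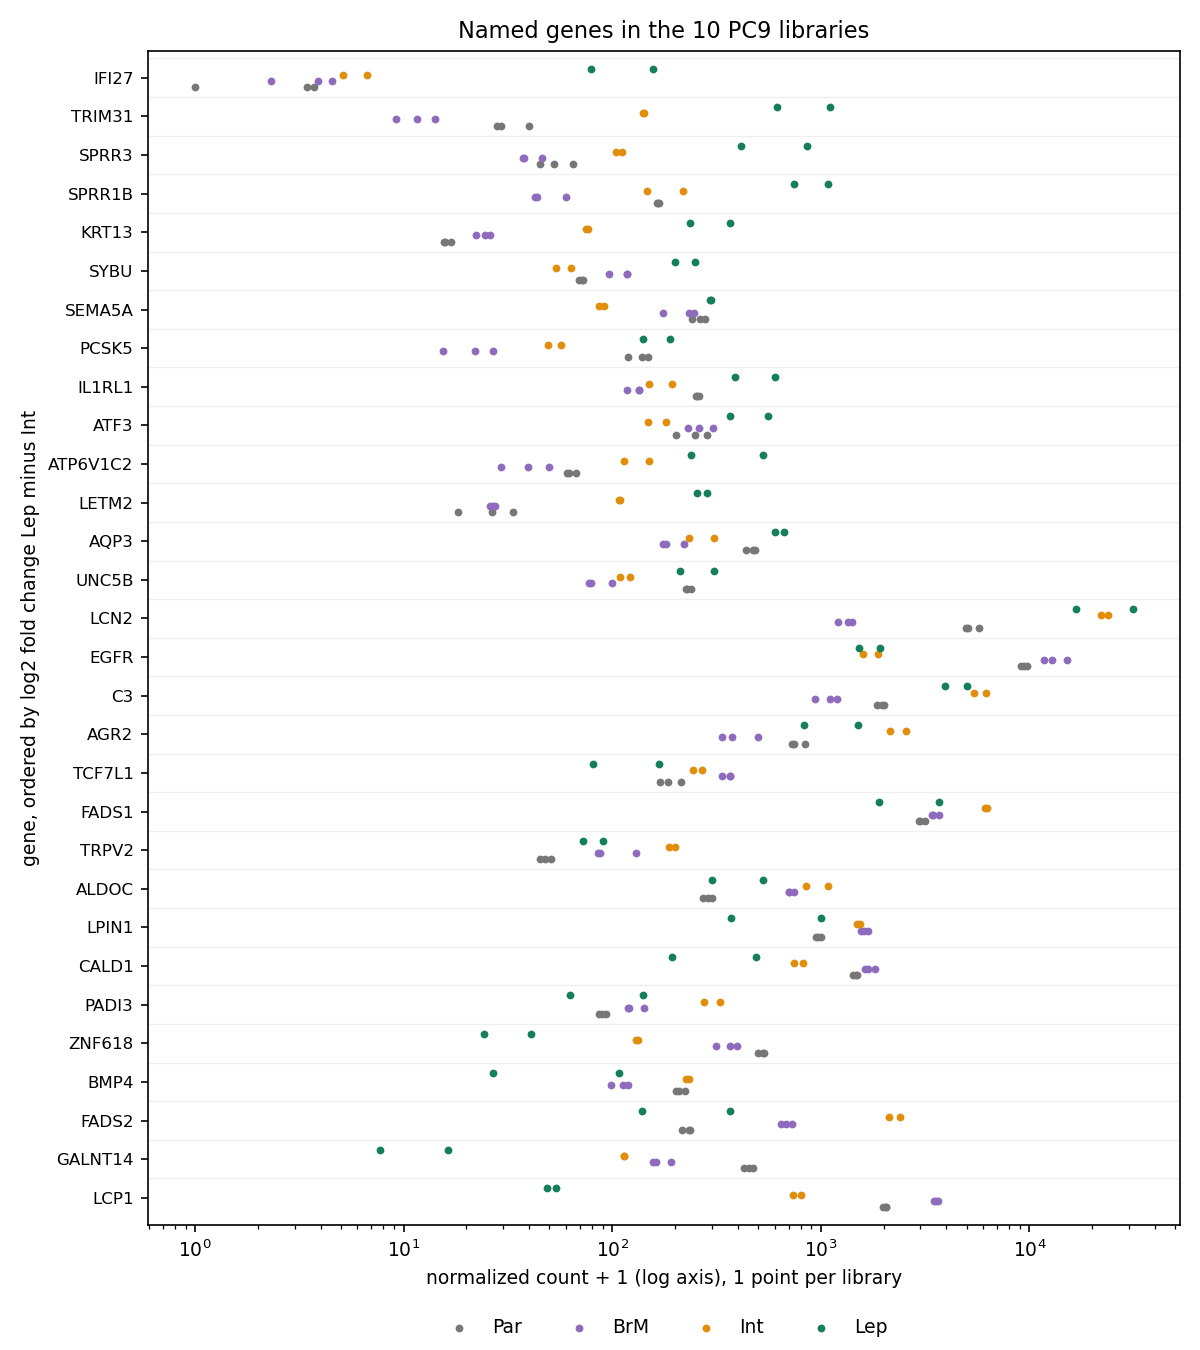
Normalized counts plus 1 (log axis) of 30 named genes in the 10 PC9 libraries, 1 point per library, with colours for Par, BrM, Int and Lep. For the 27 called genes shown both Lep libraries lie outside the Int pair, and for LCN2 and EGFR the 2 stages overlap.

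C3, LCN2 and EGFR were set to be described whatever their change. C3, the central component of the complement cascade, read 5446 and 6221 in Int and 5023 and 3915 in Lep. Both Lep libraries were below Int, but the log2 fold change of -0.39 ± 0.12 was not called (adjusted p = 0.116). LCN2, lipocalin-2, which captures iron-loaded siderophores, read 21934 and 23802 in Int and 16799 and 31300.3 in Lep. The Lep libraries lay on either side of Int (log2 fold change 0.0052 ± 0.20, adjusted p = 0.995), and without Lep replicate 2 the value was -0.44. EGFR, the receptor for epidermal growth factor, read 1867 and 1595 in Int and 1527 and 1928 in Lep, with a log2 fold change of -0.0084 ± 0.12 (adjusted p = 0.984), while its mean in Par was 9436. Among the 16 tested genes of the complement system and the 19 of iron handling, 0 were called, beside 0.608% of all genes. With so few genes at that share, 0 calls say little about either list.

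Across the 27 gene lists of tumour and pathway genes, 13 had at least 1 called member and 14 had none. Of the 811 genes tested in these lists 26 were called, beside 88 of all 14475 genes (0.608%). At that share 0 or 1 calls in a single list say little. Hypoxia and glycolysis genes were shifted downwards by small amounts: both Lep libraries lay below both Int in 20 of 37 (54.1%, beside 19.7% of all genes) and above in 0, the median log2 fold change was -0.17, and ALDOC was the 1 called member. LDHA, lactate dehydrogenase, read 81247 and 89141 in Int and 73599 and 72842 in Lep (log2 fold change -0.22, adjusted p = 0.205), and BNIP3, a hypoxia-induced mitophagy receptor, read 1232 and 1606 in Int and 926 and 947 in Lep (log2 fold change -0.59, adjusted p = 0.0167). Antigen presentation genes were below Int in 9 of 20 (45%, beside 19.7%) and above in 1, with 0 called. S100 proteins were above Int in 6 of 15 (40%, beside 18.1% of all genes) and below in 2, with 0 called. Proliferation genes were divided, with 13 of 45 above and 12 below, and 0 called.

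**Figure D5:**
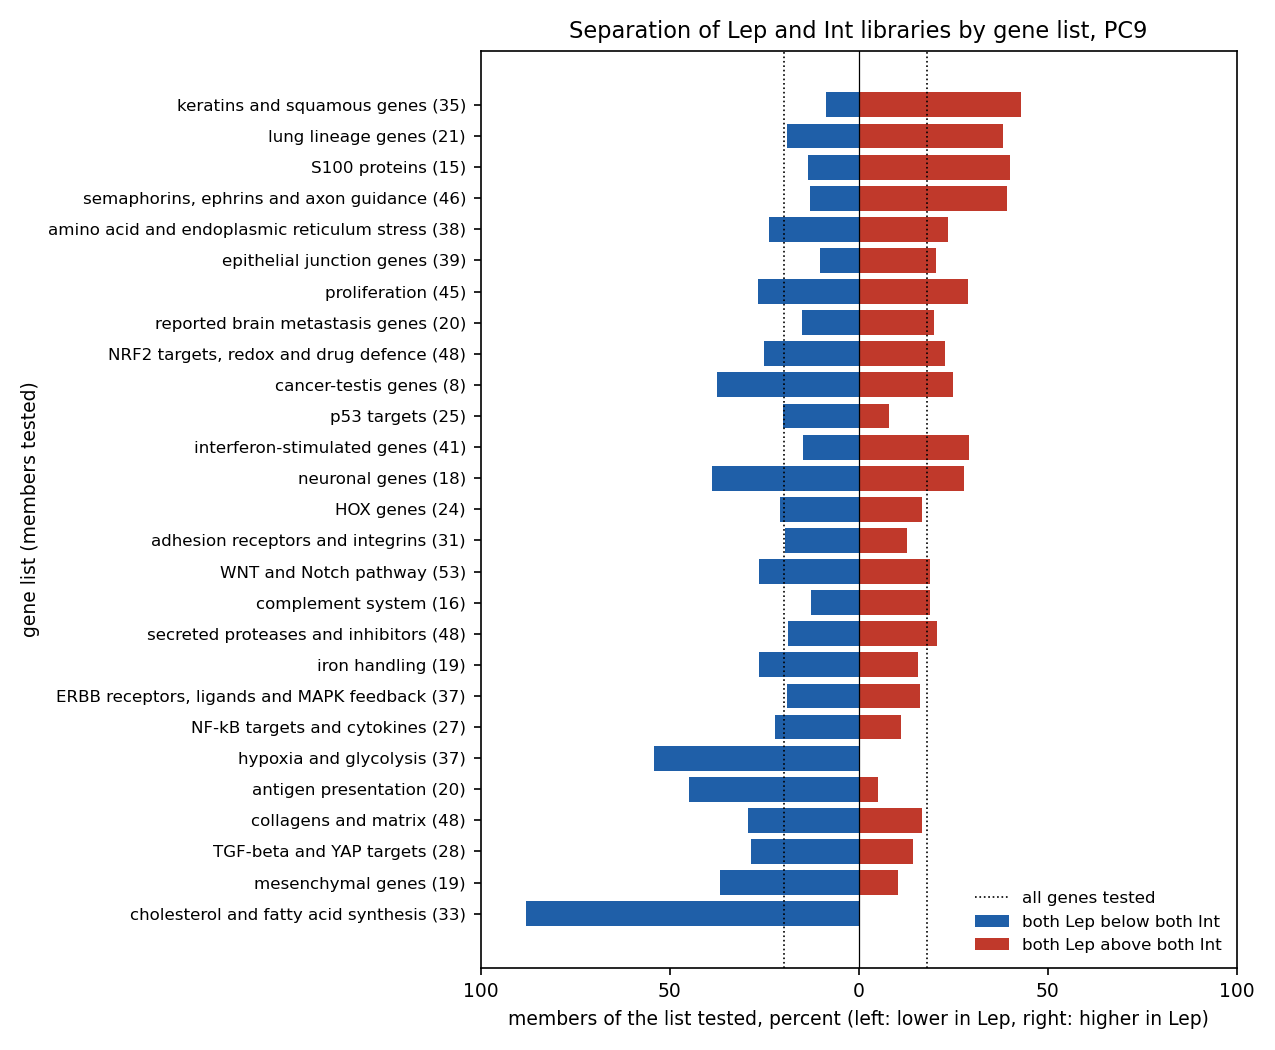
Share of the tested members of each of the 27 gene lists, in percent, with both Lep libraries below both Int (blue, to the left) or above both Int (red, to the right), with the number of members tested in brackets. The dotted lines are the shares over all genes tested, 19.7% and 18.1%. Cholesterol and fatty acid synthesis reaches 87.9% to the left and hypoxia and glycolysis 54.1%, both with nothing to the right.

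The gap between the 2 Lep libraries fell on particular genes, given here as a description. BCAT1, a branched-chain amino acid transaminase, read 1026 and 1149.7 in Int, 361 in Lep replicate 1 and 5.02 in Lep replicate 2. MSN, the membrane-cytoskeleton linker moesin, read 18353 and 18123 in Int, 16917 in Lep replicate 1 and 3351 in Lep replicate 2. TNC, the matrix protein tenascin C, was high in Lep replicate 1, at 1701, and 298 in Lep replicate 2, with 392.5 and 443 in Int. CEACAM5 and CEACAM6, epithelial cell surface glycoproteins, went the other way: CEACAM5 read 238 in Lep replicate 1 and 2691 in Lep replicate 2, with 232 and 198 in Int, and CEACAM6 read 3810.4 and 15327, with 3969 and 3693 in Int. For MSN, CEACAM5 and CEACAM6, Lep replicate 1 lay close to Int and Lep replicate 2 was the library that departed. None of these 5 genes was called.

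The same 2 stages were deposited for 2 breast cancer lines in tables normalized separately, and each was fitted within its own table. HCC1954, with 2 Int and 3 Lep libraries, had 1817 genes called higher (11.7% of 15561 tested) and 540 called lower (3.47%). Of the 33 genes higher in PC9, 31 were tested there, of which 12 were called higher (36.4% of the PC9 genes and 0.66% of the HCC1954 ones) and 4 lower. SPRR3, KRT13, SEMA5A, PCSK5 and LETM2 were among those higher in both lines. Of the 55 genes lower in PC9, 53 were tested there, and 4 were called lower (7.27% of the PC9 genes and 0.741% of the HCC1954 ones) and 19 higher. MDA-MB-231, with 2 libraries of each stage, had 4 genes called higher (0.0265% of 15106 tested) and 20 lower (0.132%), and 1 of the 55 genes lower in PC9 was called lower there. The differences between lines were not tested.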

How the data were processed

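RNA of cultured PC9 derivatives was sequenced after library preparation with the TruSeq RNA kit v2 as paired 50-base reads, per the labels' protocols. FastQC 0.11.3, HTSeq 0.5.4 and DESeq2 are named in the submitters' processing notes, with build hg19. The deposited values are a normalized signal: in the PC9 and HCC1954 tables each library's values are whole multiples of its smallest value above 0, as read counts divided by 1 factor per library would be. 0 value columns of the tables used lacked a sample.

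The filter kept genes that reached 10 in 2 or more libraries, and these were tested on log2(value + 1) with limma 3.58.1 (trend, R 4.3.3) in 1 fit of all 10 PC9 libraries. Called means a Benjamini-Hochberg adjusted p under 0.05 and a log2 fold change of at least 1. The script was tested on simulated data. edgeR 4.0.16 and DESeq2 1.42.0 on the recovered reads, pseudocounts of 0.5 and 5, filters, scalings and left-out libraries were alternatives. HCC1954 and MDA-MB-231 were fitted likewise, each within its own table.

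Genes named are called, not overlapping between the stages and with a mean of 100 or more where they are higher: the 12 largest in each direction and up to 3 per list and direction, plus C3, LCN2 and EGFR. Genes named outside this rule, including other members of the lists and those set apart by the 2 Lep libraries, were chosen after their values were seen. The comparison, the gene lists and the tests were chosen with earlier results of these data known. Some genes are counted in the totals but not reported here. Promoters are RefSeq's on GRCh38.p14; the files' own build was not used for coordinates.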

Additional observations from a re-analysis of the deposited data

Results flagged for a closer look

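7 named genes were called in both PC9 and HCC1954 in opposite directions, with every Lep library on one side of every Int library in each line. The difference between the lines was not tested. In HCC1954 the log2 fold change Lep minus Int was -2 for IFI27 and -1.95 for TRIM31, both of which were higher in PC9 (4.26 and 2.55). It was 4.08 for LCP1, 4.54 for CALD1, 1.16 for PADI3, 1.04 for FADS1 and 1.11 for TCF7L1, all 5 of which were lower in PC9 (-3.91, -1.35, -1.68, -1.22 and -1.14). LCP1 had a mean of 193 in Int and 3103 in Lep of HCC1954, against 768 and 50.2 in PC9.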

How the results depend on the processing

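None of the 88 called genes changed direction in the alternatives run for PC9, of which a minimum value of 50 kept 77 of them. Neither a left-out library nor another pseudocount or filter could reverse them, since both Lep libraries lay on the same side of both Int. Fits of the 4 libraries alone gave the same fold changes, so direction was no test in any of these. With the 4 Int and Lep libraries alone, the genes called went from 88 to 1, the named genes called from 28 to 1, and the list members called, cholesterol genes called lower and squamous genes called higher to 0 each. With the replicate number as a block these 5 counts were 1, 1, 0, 0 and 0; the deviations of same-numbered libraries correlated at 0.096 over 2 pairs and the labels tie no batch to a number, so the numbers were not taken to pair the samples. Without a filter on low values 69 genes and 16 list members were called. Over the 4 fits that leave out 1 library, the genes called ranged from 26 to 371, the named genes from 12 to 24, the list members from 7 to 61, the cholesterol genes from 2 to 19 and the squamous genes from 3 to 7. Of the 28 called named genes, SPRR2D, STARD4 and LSS, 13 of these 31 kept the call in each of those fits. edgeR called 126 genes (68 higher, 58 lower, 82 of them shared with the 88) and DESeq2 97 (49 higher, 48 lower, 74 shared), so that the share of higher calls was 54% and 50.5% rather than 37.5%. Pseudocounts of 0.5 and 5 gave 87 and 100 calls, a minimum value of 50 gave 74, quantile normalization 96 and TMM scaling 90. In HCC1954 edgeR called 2384 genes against 2357. The edgeR alternative for MDA-MB-231 was not run, since whole reads were not recovered from its table. The distance between the 2 Lep libraries limits the precision of each Lep mean.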
